A study of Caenorhabditis elegans with 2 samples.

Results

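The GATA factor genes of gut and epidermis are elt-1, elt-2, elt-3, elt-4, elt-7, end-1 and end-3, 7 of the 19973 nuclear protein-coding genes of Caenorhabditis elegans. They were taken by name, and every PHA-4 peak was assigned to them whose summit lay in the gene body or in the 2000 bp upstream. PHA-4 binding had been mapped by chromatin immunoprecipitation and sequencing (ChIP-seq) in late embryos, whole animals of pooled sex and unknown exact age. The 2 libraries are biological replicates of 1 group and come from separate biosamples. Both are from strain OP37, which carries the allele unc-119(ed3) on chromosome III and the insertion wgIs37, the source of PHA-4 fused to eGFP. There is no untagged, mutant or other-stage group, so each value below describes 1 list of peaks and is set beside the same value for all genes.

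PHA-4 is the FoxA transcription factor of the nematode. It is known as the factor that specifies the pharynx, and it is also present in the developing gut. In the gut lineage, the paired redundant factors MED-1 and MED-2 switch on end-1 and end-3 in the early embryo, and END-1 and END-3 commit the endoderm precursor. They then give way to ELT-2 and ELT-7, which drive the intestinal genes of the later embryo and adult. elt-4 encodes a short relative of ELT-2. In the epidermis, ELT-1 specifies the precursors and ELT-3 acts in the differentiating cells. GATA factors are named for the bases they bind, and the autoregulation of elt-2 through such sites is known. The whole embryo holds all these tissues together, so a peak says nothing of the tissue in which PHA-4 was bound.

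The authors' relaxed lists held 5607 peaks for replicate 1, 1729 for replicate 2 and 7768 for the alignments of both replicates pooled. These lists keep peaks together with background. Each peak carries the signal of the authors' caller against control, no list holds a signal below 2.00, and a site under that value is simply not listed. The 2 replicates differed in strength: 5248 peaks of replicate 1 had a q-value of 0.05 or less, whereas the lowest q-value among nuclear peaks of replicate 2 was 0.351. The pooled list had 1330 peaks at or under 0.05, and the authors' final list held 9 peaks. The lists carry no read counts, and how deeply either library was sequenced is unknown. Signals are therefore ranked within a list and are not compared between lists.

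Of the 7 GATA factor genes, 1 had a peak in replicate 1, 0 in replicate 2 and 1 in the pooled list. The share of all protein-coding genes with a summit in the same kind of window was 23.8% in replicate 1, 8.51% in replicate 2 and 30.7% in the pooled list. The gene with a peak was elt-2 in both cases. For elt-1, elt-3, elt-4, elt-7, end-1 and end-3, none of the 3 relaxed lists held a summit in the window, and none of the 7 genes had one in the final list. With 7 genes, counts of 1 and 0 are near what these shares give for any 7 genes, so they set the members apart from other genes in neither direction.

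The sequences around the 3 elt-2 summits are given first, since they are the only member peaks in these lists. They come from the RefSeq genome of build WBcel235 (ce11), plus strand, which is the strand of elt-2, and run 100 bases to each side of the summit. Capitals mark matches to the GATA-factor site (NGATAN, with A or T at position 1 and A or G at position 6) or to the PHA-4 consensus, on either strand. That consensus has 7 letters, TNTTNNN, with A or G at positions 2 and 6, G or T at position 5 and C or T at position 7, which makes 16 forms.
elt-2 upstream summit, pooled list, chrX:10480806-10481006: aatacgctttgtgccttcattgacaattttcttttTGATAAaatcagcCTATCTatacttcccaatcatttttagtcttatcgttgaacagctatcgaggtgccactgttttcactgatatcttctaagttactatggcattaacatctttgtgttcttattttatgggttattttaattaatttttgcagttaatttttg
elt-2 intron summit, pooled list, chrX:10481641-10481841: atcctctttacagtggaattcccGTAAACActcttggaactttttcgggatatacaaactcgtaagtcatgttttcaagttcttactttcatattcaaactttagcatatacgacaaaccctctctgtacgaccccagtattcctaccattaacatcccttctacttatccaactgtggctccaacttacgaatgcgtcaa
elt-2 intron summit, replicate 1, chrX:10481871-10482071: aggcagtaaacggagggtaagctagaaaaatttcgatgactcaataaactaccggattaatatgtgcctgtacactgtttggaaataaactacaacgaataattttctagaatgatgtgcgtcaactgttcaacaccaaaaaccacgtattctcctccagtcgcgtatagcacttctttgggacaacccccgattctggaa
The upstream sequence holds 2 GATA-factor sites, one on each strand, and 0 PHA-4 matches. The first intron sequence holds 1 PHA-4 match on the reverse strand and 0 GATA-factor sites. The replicate 1 sequence holds 0 of either kind.

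elt-2 (WBGene00001250) lies at chrX:10481240-10483441, is read from the plus strand and is the gut factor that keeps intestinal genes on from embryo to adult. In replicate 1 its peak, chrX:10481799-10482142, had a summit 731 bp into the gene, in an intron, and 72.7% of the peak's bases were coding. Its signal was 2.02, rank 5563 of 5607, and its q-value was 0.0621. It therefore stands close to the end of the list, among 367 peaks with a signal of 2.1 or less. Replicate 2 listed nothing within 45.1 kb of the elt-2 start.

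The pooled list placed 2 summits in the elt-2 window. The stronger, chrX:10480731-10481080, had its summit 334 bp upstream of the gene, with a signal of 3.19, rank 3167 of 7768 and a q-value of 0.290. It lies 1065 bp from the replicate 1 summit and shares no base with that peak. The weaker, chrX:10481566-10481915, had its summit 501 bp into the gene, also in an intron, and 76.6% of its bases were coding. Its signal was 2.14, rank 6709, and its q-value was 0.947. It overlapped the replicate 1 peak by 117 bp, with the summits 230 bp apart. The upstream summit of the pooled list is thus in neither replicate's own list, and the intronic one is near a weak peak of replicate 1 alone. None of the 3 elt-2 peaks had a q-value of 0.05 or less or stood among the strongest 1000 of its list.

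**Figure D1:**
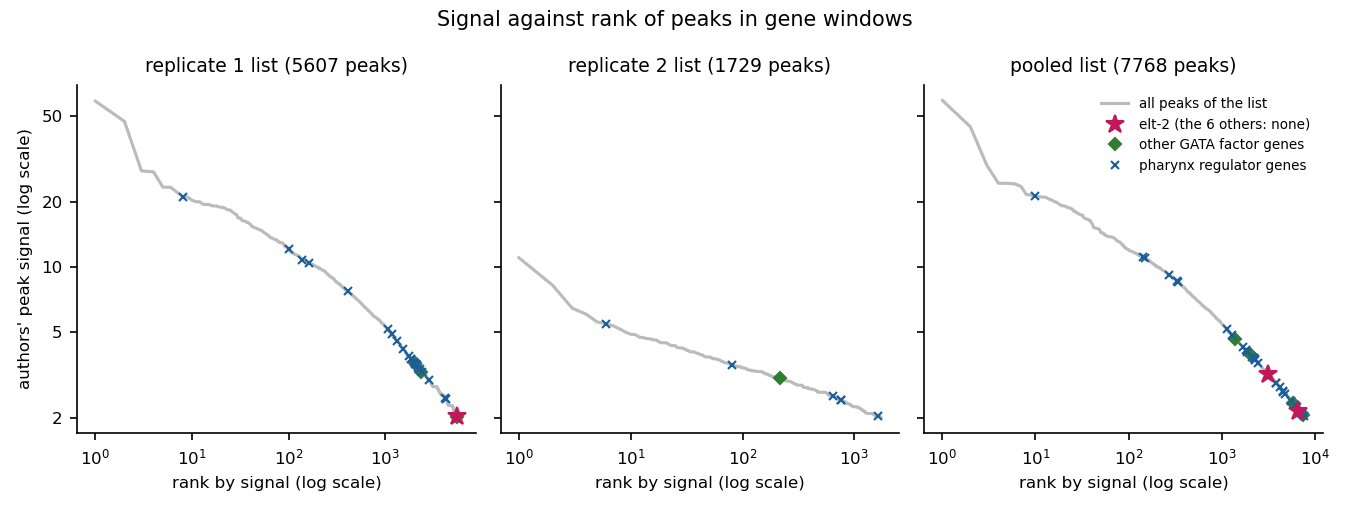
Authors' peak signal against rank within each relaxed list, both on log scales; the grey line is every peak of the list, stars are elt-2, diamonds the other GATA factor genes and crosses the pharynx regulator genes. The elt-2 peak of replicate 1 lies at the low end at a signal of 2.02, the pooled ones at 3.19 and 2.14, and replicate 2 has none. Among the pharynx regulator genes, pha-4 reaches 21.2 in replicate 1 and ceh-22 10.8. Reads of pha-4 from wgIs37 and from the native gene cannot be told apart.

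Neighbouring PHA-4 peaks were then located for each member. end-1 (WBGene00001310, chrV:13985128-13987074) and end-3 (WBGene00001311, chrV:14014695-14015980) commit the endoderm precursor, and their starts lie 29.567 kb apart. In replicate 1 the nearest summit was 53.8 kb from the start of end-1 and 24.2 kb from that of end-3, the same peak in both cases, with a signal of 3.87. Only 2.41% of protein-coding genes were as far from a summit as end-1, and 13.6% as far as end-3, against a median distance of 7001 bp. Both genes sit in 1 stretch of 127 kb between successive replicate 1 summits, chrV:13911520-14038906, which holds 39 protein-coding genes. Of 5588 such stretches 26 were as long, and 5.38% of gene starts lay in one of that length.

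The other lists treat the pair differently. In the pooled list a weak peak in ric-7, with a signal of 2.56 and rank 4896, divides that stretch, 13.9 kb downstream of the end-1 start and 15.7 kb upstream of the end-3 start. The pooled stretches around end-1 and end-3 then measure 37.1 kb and 39.9 kb, and 32.5% and 28.8% of gene starts lay in stretches as long. In replicate 2 both genes lie in 1 stretch of 148 kb, and 31.5% of gene starts lay in one as long. By distance to the nearest summit, 13.1% of genes were as far as end-3 in replicate 2 and 15.6% in the pooled list, and for end-1 the shares were 19.2% and 18.8%. end-3 thus had a similar place in all 3 lists by this measure, and end-1 was farther out in replicate 1 than in the others.

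elt-1 (WBGene00001249, chrIV:9614995-9620280), which specifies epidermal precursors, lies in a similar stretch. Its nearest replicate 1 summit was 20.1 kb from the start, with a signal of 2.78, and 18% of genes were as far or farther. The stretch without a replicate 1 summit measured 121 kb and held 23 protein-coding genes, and 6.60% of gene starts lay in one as long. In the pooled list it measured 106 kb, and 3.26% of gene starts lay in one as long. In replicate 2 it was 215 kb, a length that 17.7% of gene starts shared or exceeded. By distance to the nearest summit, 31.7% of genes were as far as elt-1 in replicate 2 and 10.4% in the pooled list.

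elt-3 (WBGene00001251, chrX:13934874-13941216), the factor of differentiating epidermis, had the most peaks nearby. Within 20 kb of the gene replicate 1 listed 8 summits, against a median of 2 over all genes. The strongest, with a signal of 9.58 and rank 234 in replicate 1, lay 15.7 kb downstream of the start in alg-1, which encodes an Argonaute protein. The pooled list, which is built from the replicate 1 alignments too, has a summit at the same base, with a signal of 9.40 and rank 254. Replicate 2 listed no summit there. The nearest replicate 1 summit, 5.07 kb upstream, had a signal of 2.27, and the nearest replicate 2 summit lay 3.76 kb upstream in a pseudogene with a signal of 2.32. The elt-3 window itself, 8343 bp and the longest of the 7, was without a summit.

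elt-7 (WBGene00015981, chrV:4770670-4773086) acts with elt-2 in the gut. Its nearest replicate 1 summit was 8.99 kb downstream in the gene C18G1.1, with a signal of 2.30, a distance that 42.3% of genes matched or exceeded. Replicate 2 had an intergenic summit 12.1 kb upstream with a signal of 3.71, rank 61 of its 1729 peaks, but with a q-value of 0.351. The pooled list, which is built from the replicate 2 alignments too, has a summit at the same base with a signal of 2.51. Replicate 1 lists none there within 20 kb upstream. elt-4 (WBGene00001252, chrX:10475527-10475959) starts 5.713 kb upstream of elt-2 on the same strand. The elt-2 peak was its nearest in replicate 1, 6.44 kb from its start, and 52.4% of genes were as far or farther.

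**Figure D2:**
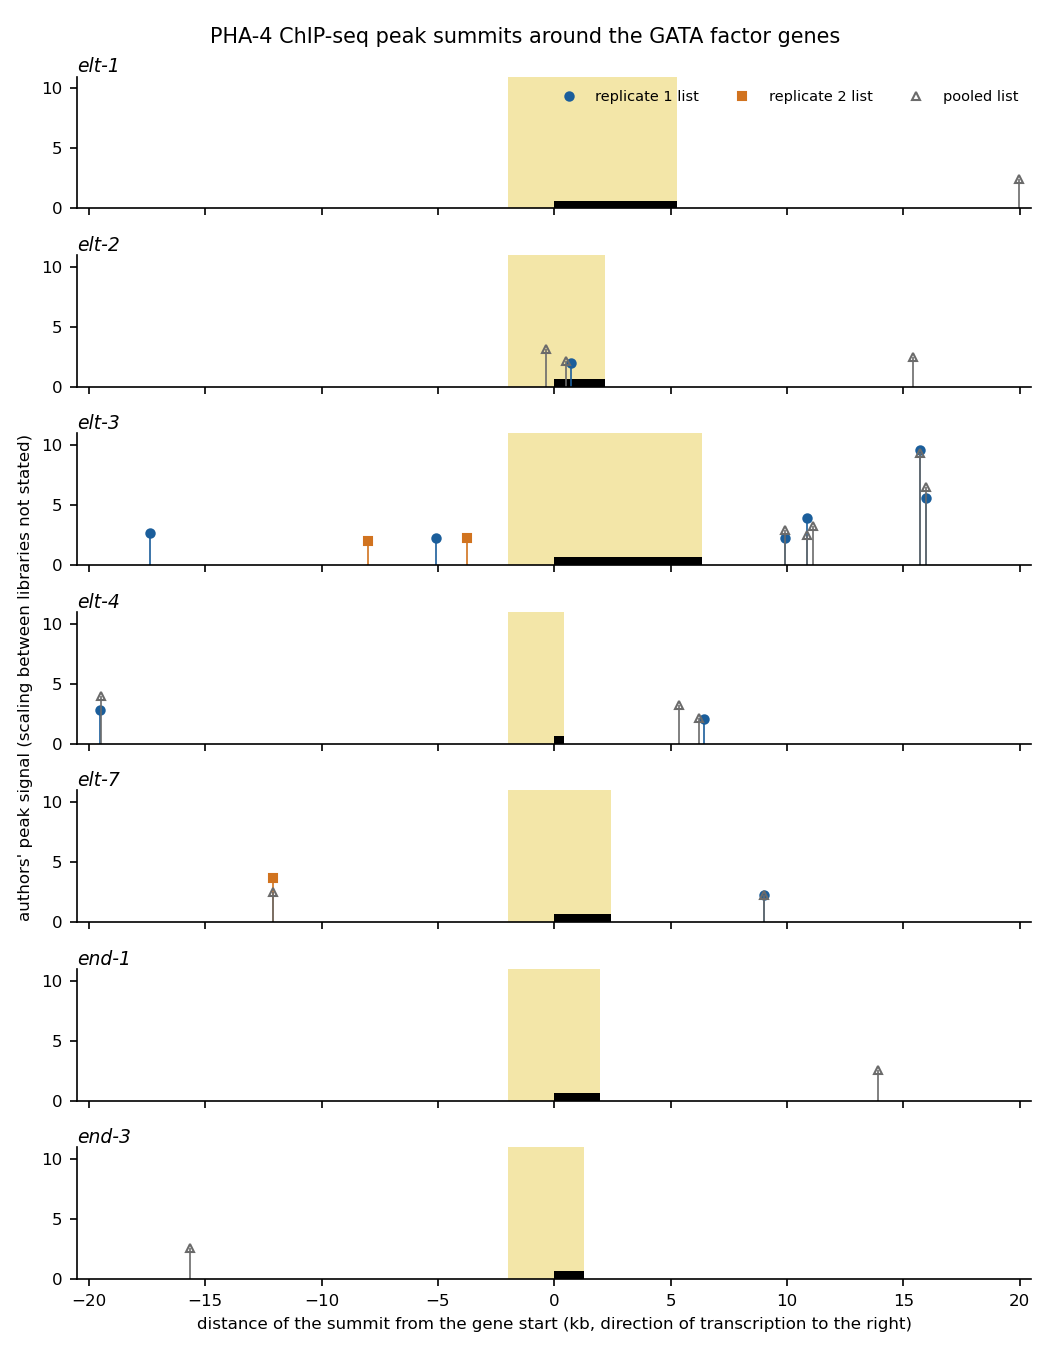
Authors' peak signal of each summit within 20 kb of a gene's start, against distance from that start in kb; the black bar is the gene, the shaded band the gene body with 2 kb upstream, circles are replicate 1, squares replicate 2 and triangles the pooled list. Marks fall in the band for elt-2 alone, and the highest near any member is the replicate 1 summit of 9.58 beyond elt-3.

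The members differ in how much sequence could hold a summit. Their windows ran from 2433 bp for elt-4 to 8343 bp for elt-3, with a median of 4202 bp, against 4027 bp for all genes. The members' 33.9 kb held 0.295 summits per 10 kb in replicate 1, 0 in replicate 2 and 0.590 in the pooled list, against 0.592, 0.181 and 0.819 for all gene windows. Among the 16837 genes with windows of 2433 to 8343 bp, the share with a peak was 21.0% in replicate 1, 7.41% in replicate 2 and 27.6% in the pooled list. The longest member windows, elt-1 and elt-3, were in a class of 6 to 10 kb in which 36.1% of genes had a replicate 1 peak. The shortest, elt-4, was in the class up to 3 kb, in which 15.8% had one.

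**Figure D3:**
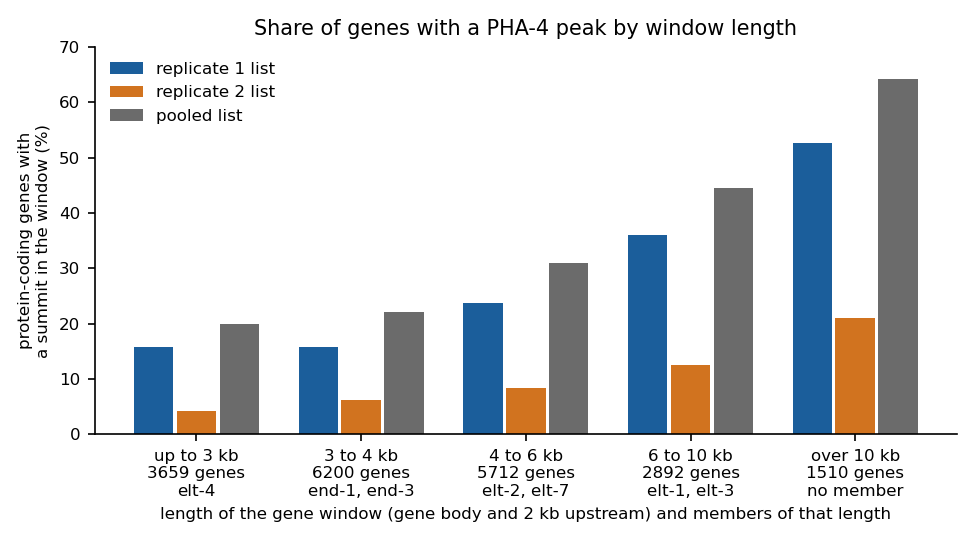
Percent of protein-coding genes with a summit in the window (gene body and 2 kb upstream), by window length in kb and by peak list; the members of each length class and its number of genes stand under the bars. In replicate 1 the share is 15.8% and 15.7% in the 2 shortest classes and larger in each class above 4 kb, to 52.6% over 10 kb, where no member lies.

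The chromosomes of the members also differ. On chromosome X, with elt-2, elt-3 and elt-4, 28.5% of protein-coding genes had a replicate 1 peak. On chromosome IV, with elt-1, the share was 22.2%, and on chromosome V, with elt-7, end-1 and end-3, it was 16.9%. A few other genes reach into the windows. The protein-coding gene C18G1.9 lies divergently upstream of elt-7, aip-1 ends upstream of end-3, and srh-308 meets the end of end-3. Since no summit lies in those 2 windows, no peak had to be divided between neighbours. Sequence copies limit little here: every 50-base word was unique in the genome for elt-1, elt-2, elt-4 and end-3, and 98.2% of words were in elt-3, 99.0% in elt-7 and 99.3% in end-1.

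The 300 bases before 4 members without a listed summit follow, end-1 and end-3 for their MED sites and elt-7 and elt-4 because they hold both PHA-4 and GATA-factor matches. All are from the RefSeq genome of build WBcel235 (ce11), plus strand, the strand of each gene, and end at the base before the annotated start. For end-1 and end-3, capitals mark AGTATAC, the core of the known MED-1 and MED-2 site, on either strand. For elt-7 and elt-4, capitals mark the GATA-factor site and the PHA-4 consensus defined above, on either strand.
end-1, chrV:13984828-13985127: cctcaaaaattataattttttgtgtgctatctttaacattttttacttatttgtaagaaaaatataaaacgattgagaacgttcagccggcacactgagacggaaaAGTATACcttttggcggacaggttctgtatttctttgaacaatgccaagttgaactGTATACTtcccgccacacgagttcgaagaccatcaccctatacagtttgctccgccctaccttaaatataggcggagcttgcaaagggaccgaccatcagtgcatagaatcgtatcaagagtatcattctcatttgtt
end-3, chrV:14014395-14014694: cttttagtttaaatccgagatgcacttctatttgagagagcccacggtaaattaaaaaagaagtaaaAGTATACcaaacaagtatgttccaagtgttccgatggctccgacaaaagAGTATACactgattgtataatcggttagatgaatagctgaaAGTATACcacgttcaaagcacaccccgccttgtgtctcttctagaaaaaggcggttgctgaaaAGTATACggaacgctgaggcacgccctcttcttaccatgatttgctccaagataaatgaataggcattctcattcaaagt
elt-7, chrV:4770370-4770669: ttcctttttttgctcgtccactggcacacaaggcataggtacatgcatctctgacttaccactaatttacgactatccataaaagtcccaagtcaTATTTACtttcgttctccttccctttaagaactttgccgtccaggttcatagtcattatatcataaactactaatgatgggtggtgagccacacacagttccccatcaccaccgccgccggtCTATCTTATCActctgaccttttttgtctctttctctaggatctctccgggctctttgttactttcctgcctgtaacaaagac
elt-4, chrX:10475227-10475526: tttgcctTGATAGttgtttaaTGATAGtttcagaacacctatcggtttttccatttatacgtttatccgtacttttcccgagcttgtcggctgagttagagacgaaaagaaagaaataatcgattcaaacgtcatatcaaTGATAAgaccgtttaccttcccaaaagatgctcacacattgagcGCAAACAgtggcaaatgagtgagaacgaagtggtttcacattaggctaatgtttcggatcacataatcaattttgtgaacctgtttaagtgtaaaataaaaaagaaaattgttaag
end-3 has 4 MED sites, starting 233, 184, 143 and 80 bp before the gene, and end-1 has 2, starting 194 and 138 bp before it. Of all protein-coding genes, 1.80% have 1 or more in this window. elt-7 has 2 GATA-factor sites, which overlap each other, and 1 PHA-4 match. elt-4 has 3 GATA-factor sites and 1 PHA-4 match. end-1 also has 1 GATA-factor site and 1 PHA-4 match here, and end-3 has 1 and 0, not marked in capitals. Of all genes, 54.9% have a GATA-factor site and 67.6% a PHA-4 match in 300 bp.

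Over the full 2000 bp upstream, PHA-4 matches numbered 10 at elt-4 and end-3, 9 at elt-2, 7 at elt-7, 6 at end-1 and 5 at elt-1 and elt-3, against a median of 7 over all genes. The consensus is short, and 99.6% of genes have at least 1 match in 2000 bp. The 6 members without a peak thus had 5 to 10 matches, on both sides of the 9 at elt-2. GATA-factor sites numbered 15 at elt-2, and 43 genes in all (0.215%) have as many. elt-4 had 8, elt-3, end-1 and end-3 had 6 each, elt-1 had 5 and elt-7 had 3, against a median of 5. In elt-2 these sites run from 1993 to 74 bp before the gene. The 2 nearest the upstream pooled summit on its upstream side, shown in capitals in the first sequence, start 399 and 386 bp before the gene. Of the upstream sequence, 32% was G or C at elt-2, against a median of 34.85% over all genes. The share was 27.4% at elt-3 and 31.55% at elt-4, and the remaining members had 33.15% to 39.15%. Whether base composition bears on the number of sites was not tested. The MED site occurred 4 times at end-3, 2 times at end-1 and 1 time at elt-2, and 0 times at the other 4 members. Of all genes, 0.160% have as many as end-3 in 2000 bp, 3.20% as many as end-1 and 11.6% as many as elt-2. A match is a run of letters and not evidence of binding.

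**Figure D4:**
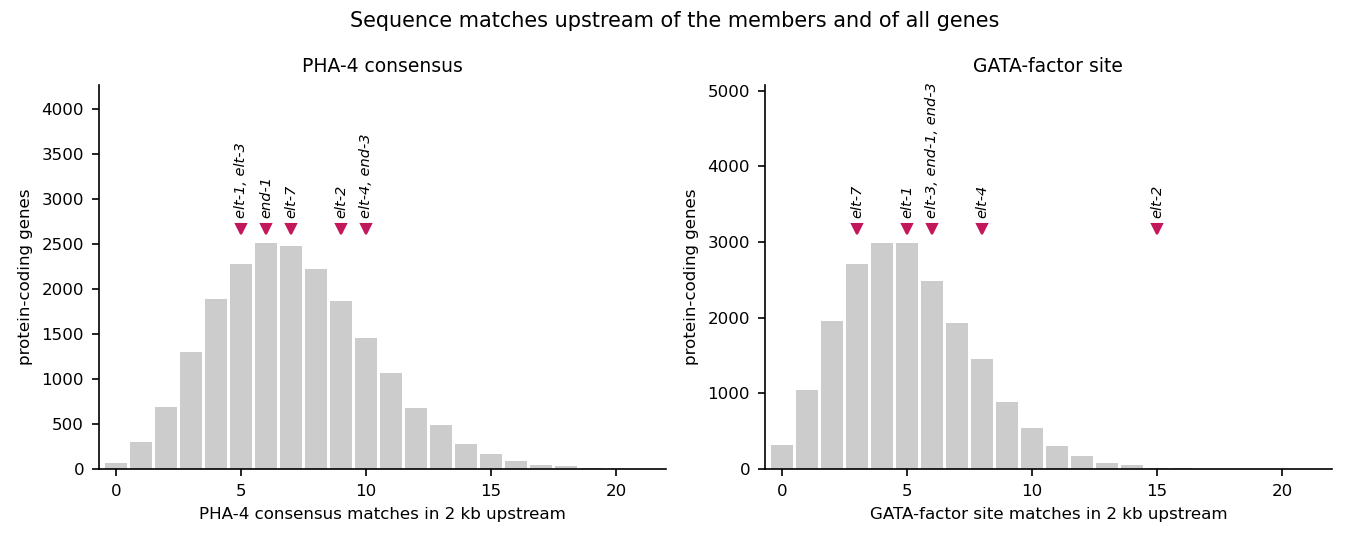
Number of protein-coding genes (y axis) by the number of PHA-4 consensus matches (left) or GATA-factor site matches (right) in 2 kb upstream; triangles mark the members. The members lie at 5 to 10 PHA-4 matches, around the median of 7, and elt-2 lies at 15 GATA-factor sites, far to the right of the median of 5.

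Across the whole lists, a PHA-4 match lay within 100 bp of 57.4% of replicate 1 summits, against 47.0% of flanking windows centred 500 bp away. In replicate 2 the shares were 46.1% at summits and 46.4% in flanks, and in the pooled list 54.3% and 46.7%. GATA-factor sites lay at 32.8% of replicate 1 summits and in 36.3% of flanks. The elt-2 summit of replicate 1, with 0 of either, is among the peaks without a match. The upstream pooled elt-2 summit has 2 GATA-factor sites and 0 PHA-4 matches within 100 bp. It belongs to the 33.3% of pooled summits with a GATA-factor site, against 36.5% of flanks. The whole of that peak holds 1 PHA-4 match, starting 437 bp before the gene. Within 50 bp of its summit there are 0 GATA-factor sites.

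The remaining GATA factor genes considered are egl-18 and elt-6, which act in the lateral seam cells of the epidermis, and med-1 and med-2. In replicate 1, 2 of these 4 had a peak, in replicate 2 1 did and in the pooled list 1 did. That is 50%, 25% and 25%, against 23.8%, 8.51% and 30.7% of all genes. The egl-18 window is 17519 bp, longer than any member's. In the class over 10 kb, 52.6% of all genes had a replicate 1 peak and 64.2% a pooled one. egl-18 had 2 intronic summits in replicate 1, 2965 and 8938 bp into the gene. Their signals were 3.26 (rank 2372, q-value 0.00358) and 3.61 (rank 1978, q-value 0.00430). The pooled list has 4 summits in egl-18, with signals of 2.06 to 4.65, and 2 of them lie within 10 bp of the replicate 1 summits, with pooled q-values of 0.0576 and 0.126. The pooled list is built from the replicate 1 alignments too, so this is no independent repeat. Neither egl-18 nor elt-2 had a replicate 2 peak. elt-6 had none in any list.

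med-1 and med-2 are near copies, with 97.5% of 525 bases the same, and they differed by list. med-1 had a replicate 1 summit 483 bp upstream with a signal of 2.02, rank 5584 of 5607, and none in replicate 2. med-2 had a replicate 2 summit 462 bp upstream with a signal of 3.04, rank 217 of 1729 and a q-value of 0.409, and none in replicate 1. The pooled list had neither. Both peaks lie in sequence whose 50-base words are 100% unique, although 61.6% of such words are unique in the gene bodies.

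Genes that act before and after the members in the same tissues were counted by the same rule. Of 10 endoderm specification genes, which act above end-1 and end-3, 6 had a peak in replicate 1, 1 in replicate 2 and 7 in the pooled list. The strongest in replicate 1 were wrm-1 and sys-1, both beta-catenins, with signals of 9.39 (rank 245) and 7.66 (rank 415) 481 and 388 bp upstream. The kinase gene lit-1 followed with 5.99, skn-1, a maternal factor of the endoderm pathway, with 4.05, and apr-1, the APC homologue, with 3.67. The replicate 2 peak was in lit-1, 5472 bp into the gene, with a signal of 2.59 and a q-value of 0.447. It overlapped no replicate 1 peak of lit-1. The counts come to 60%, 10% and 70% of the list, against 23.8%, 8.51% and 30.7% of all genes. The windows of these genes are longer than the members', with a median of 7164 bp.

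Of 20 intestine differentiation genes, which respond to ELT-2 and its partners or build the gut, 4 had a peak in replicate 1, 1 in replicate 2 and 5 in the pooled list. They were erm-1 with a signal of 4.28, the intermediate filament gene ifb-2 with 3.72, the IP3 receptor gene itr-1 with 3.47 and the phosphatase gene pho-1 with 2.78, all in replicate 1. The replicate 2 peak was in itr-1, 13263 bp into the gene in a coding exon, with a signal of 2.24 and a q-value of 0.751. It did not overlap the replicate 1 peak of itr-1, whose summit lay 298 bp upstream. These counts come to 20%, 5% and 25% of the list, near the shares over all genes.

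Of 8 epidermis regulator genes, 4 had a peak in replicate 1, 3 in replicate 2 and 4 in the pooled list. In replicate 1 they were grh-1, the Grainyhead homologue, with a signal of 6.19 (rank 691), the nuclear receptor genes nhr-25 with 2.78 and nhr-23 with 2.54, and the fusogen gene aff-1 with 2.06. In replicate 2 they were the fusogen gene eff-1 with 2.40, blmp-1 with 2.24 and lin-26 with 2.04, and no gene of the list had a peak in both replicates. The counts come to 50%, 37.5% and 50% of the list, against the same 23.8%, 8.51% and 30.7%. Of 10 epidermis differentiation genes, the same 2 had a peak in each relaxed list, ajm-1, an apical junction gene, and vab-10, a spectraplakin gene. That is 20% in each list, against 23.8%, 8.51% and 30.7% of all genes. The best signals of ajm-1 and vab-10 in replicate 1 were 11.4 and 5.42, and in replicate 2 2.09 and 2.19. Their replicate 2 peaks overlapped 0 of the replicate 1 peaks: the summits were 5.10 kb apart at the nearest in ajm-1 and 492 bp in vab-10. The windows of ajm-1 and vab-10 are 32.7 and 59.6 kb. Among all genes with windows over 10 kb, 52.6% had a replicate 1 peak, 21.1% a replicate 2 peak and 64.2% a pooled one. The median window was 6676 bp for the regulators and 5059.5 bp for the differentiation genes.

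Of 10 pharynx regulator genes, 6 had a peak in replicate 1, 5 in replicate 2 and 8 in the pooled list. That is 60%, 50% and 80%, against 23.8%, 8.51% and 30.7% of all genes. Their windows are longer, with a median of 6498 bp against 4202 bp for the members and 4027 bp for all genes. pha-4 itself led replicate 1 with a signal of 21.2, rank 8, but wgIs37 carries pha-4 sequence, and reads from the inserted and native copies cannot be told apart. ceh-22, a pharyngeal muscle factor, followed with 10.8 (rank 139), then peb-1 with 5.15, pha-2 with 3.86 and tbx-2 with 3.61. In replicate 2 they were pha-4 with 5.45, tbx-2 with 3.50, ceh-22 with 2.41, peb-1 with 2.41 and pha-2 with 2.04. Their replicate 2 q-values ran from 0.351 at pha-4 to 0.864 at pha-2. Only at pha-4 did a replicate 2 peak overlap a replicate 1 peak. Those at tbx-2, ceh-22, peb-1 and pha-2 lay elsewhere in the windows, so these genes did not repeat the same peaks. The GATA members held 0.295 summits per 10 kb of window in replicate 1 and 0 in replicate 2, against 2.95 and 0.843 for the pharynx regulators. Without pha-4, which holds 11 of their 21 replicate 1 summits, the pharynx values were 1.61 and 0.807. Members and lists share the same 2 libraries, so these values stand side by side and were not tested against each other.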

How the data were processed

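PHA-4 ChIP-seq peaks of 2 biological replicates of late embryos were used, as deposited by the authors in build ce11 (WBcel235). Per the deposited file listing, these are a relaxed list for each replicate and for both pooled, each called against 2 control alignments, and a final list. The aligner and caller were not given in the sources used here, and the ce10 lists were not used here. The authors deposited a signal value against control for each peak, whose scaling between libraries is not stated. They also deposited a −log10 q-value, which was turned into a q-value for the text. The summit is the peak start plus the deposited offset, which is the middle of the peak. Tied signals share the best rank.

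Summits were placed on the Ensembl release 115 annotation, and a gene's window is its body plus 2000 bp upstream. Motifs were counted in the RefSeq genome on both strands, and the MED site, the stretches between summits and the pharynx density without pha-4 were added after the data had been seen. With 1 group, no test between groups was possible. Peaks carry no read counts, so no counting interval is given. Counting was tested on simulated peaks. Alternatives were window length, summit or overlap, the strongest 1000 peaks, q-values of 0.05 or less, the nearest start and each replicate alone. Every peak in a member's window is named. Of the other lists, up to 5 genes of highest signal in replicate 1 and each gene in replicate 2 are named. The members and lists were chosen with earlier results of these data known. Python 3.11.15, pandas 2.3.3 and numpy 2.4.6 were used.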

Additional observations from a re-analysis of the deposited data

How the results depend on the processing

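Of 27 alternative values, 20 equalled the reported one. However, 6 of these take fewer bases or peaks than a setting that already gave 0 and could not differ, which leaves 14. Some of the 14 were fixed too. In replicate 1 and the pooled list, 1000 bp upstream still includes an elt-2 summit and can add no member. The same holds for 2000 bp upstream and the first 500 bp in the pooled list. The pooled value without replicate 2 repeats the replicate 1 value. For replicate 1, elt-2 dropped out, leaving 0 of 7 members with a peak, when the window was limited to 2000 bp upstream and the first 500 bp of the gene, when the strongest 1000 peaks were used, and when a q-value of 0.05 or less was required. For replicate 2, 5000 bp upstream gave 1 member, elt-3, and the other settings gave 0. For the pooled list, the strongest 1000 peaks and the q-value of 0.05 each gave 0. No pooled call with a replicate left out could be made from peak lists. The other replicate's own list stands in for it and gave 0 to 1 members: 0 without replicate 1 and 1 without replicate 2, through the summit 731 bp into elt-2, which is neither pooled summit. Lengths of 1000 bp upstream, any overlap of 1 bp and the nearest start left all 3 counts as they were, and 5000 bp upstream did so for replicate 1 and the pooled list. No match at the replicate 1 elt-2 summit appeared in the whole peak, for PHA-4 or GATA-factor sites. The cause of these changes was not tested. No paired analysis was possible because there is 1 group. The lists stop at a signal of 2.00, so weaker binding at the 6 other members was not detectable, and read depth is unknown.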

Other observations

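A word of 17 letters, AGGTGCCACTGTTTTCA, occurs 2 times in the genome, both upstream of elt-2 on chromosome X, starting 337 and 92 bp before the gene. The first copy starts within 3 bp of the pooled summit 334 bp upstream. The second ends just before the GATA-factor site that starts 74 bp before the gene. The word was looked for after the sequence around the pooled summit had been read, and no other member was searched for repeats.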
